A study of Mus musculus with 3 samples.

Results

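Transcripts of 10 genes of cytotoxic lymphocytes, most of them part of the killing machinery or its control, are followed here. These are 4 granzymes (Gzma, Gzmb, Gzmk and Gzmm), perforin (Prf1), Fas ligand (Fasl), the granule protein Nkg7, the cathepsin Ctsw, and the serpins Serpinb9 and Serpinb6b. They were chosen by name, and all 10 are among the 32285 genes counted. Their transcripts were measured by single-cell RNA sequencing (10x Genomics 3' libraries) of live CD45+ cells, that is, of leukocytes, sorted from the pancreatic islets of female wild-type NOD mice, the strain that develops autoimmune diabetes without treatment. The study made 3 such libraries, called replicates 1, 2 and 3 here. Each pools islets of 2 to 3 mice, all without treatment and 15 to 16 weeks old by the methods (14 to 16 weeks by a figure legend), and there is 1 condition, so the comparisons below are between cell classes of the same libraries. The study names 2 independent experiments without stating which library came from which, and sample descriptions set replicates 1 and 3 apart from replicate 2.

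Cells were put into 7 classes by their unique molecular identifiers (UMIs, the counted transcript molecules). CD8 T cells had at least 1 Cd3e UMI, at least 2 UMIs of Cd8a and Cd8b1 together and no Cd4 UMI. They were split into 4 classes by whether a UMI of Pdcd1, the gene of PD-1, and of Tcf7, the gene of TCF1, was found. CD4 T cells had Cd3e and Cd4 UMIs but no CD8 or Foxp3 UMI, NK cells had Ncr1 but no Cd3e UMI, and B cells had at least 2 Cd79a UMIs and no Cd3e UMI. The values of B cells serve here as a control for free RNA, though they need not be free RNA alone. In B cells 1 cell held 40 of 89 Gzma UMIs, and 40 cells held 50% of 593 Serpinb9 UMIs, with up to 35 in 1 cell. What these UMIs come from was not tested. Of 26142 cells kept, 14289 fell into these classes: 1205 PD-1- Tcf7+, 952 PD-1- Tcf7-, 507 PD-1+ Tcf7+ and 594 PD-1+ Tcf7- CD8 T cells, 5858 CD4 T cells, 252 NK cells and 4921 B cells. A gene of the gates was never tested, and a cell without a UMI of a gate gene may still express that gene.

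Killer lymphocytes store granzymes and perforin in secretory lysosomes. On contact with a target, perforin opens the target's membrane and the granzymes, which are serine proteases, enter and cleave proteins that lead to cell death. Fas ligand kills by a separate route, by binding the death receptor Fas on the target. In NOD mice, CD8 T cells that recognise beta cell antigens enter the islets, and persistently stimulated CD8 T cells are commonly divided into TCF1+ cells, which keep the ability to renew, and TCF1- cells, which carry more effector and exhaustion genes.

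The 10 genes lie on 6 chromosomes in GRCm38. Gzma, a tryptase, lies on chromosome 13 from 113093825 to 113100981 (minus strand), and Gzmk, another tryptase, lies next to it on the same strand, from 113171608 to 113225908, with 70626 bases and no protein-coding gene between them. Gzmb, which cleaves after aspartate and activates caspases, spans 56258838 to 56262260 on chromosome 14 (minus strand). Chromosome 10 holds Gzmm, which cleaves after methionine and leucine, from 79689020 to 79695261 (plus strand), and Prf1, from 61297833 to 61304680 (plus strand). Fasl spans 161780689 to 161788495 on chromosome 1 (minus strand), Nkg7, a membrane protein of cytotoxic granules, 43437073 to 43438249 on chromosome 7 (plus strand), and Ctsw, a cysteine cathepsin of cytotoxic cells, 5465043 to 5468507 on chromosome 19 (minus strand). Serpinb6b, at 32965209 to 32979067, and Serpinb9, an inhibitor of granzyme B that protects the cell that carries it, at 33003250 to 33017957, are neighbours on the plus strand of chromosome 13. Gzmk overlaps Esm1 and Ctsw overlaps Fibp on the opposite strand. Counts of these pairs depend on whether strand was used in counting, which is not given in the sources used here.

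Promoter windows of 250 bases before to 50 bases after the start of the gene were taken from RefSeq (GRCm38.p6), in which 9 of the 10 members matched, with 10 windows, and Ctsw did not. The windows of 5 members on which the comparisons turn are shown. The 3 motifs searched on both strands were the T-box motif GGTGTGA, the RUNX motif TGTGGTT and the AP-1 motif TGANTCA. Capitals mark every match, and no match overlaps another in these windows.
Gzmb, chr14:56262285-56262584, minus strand: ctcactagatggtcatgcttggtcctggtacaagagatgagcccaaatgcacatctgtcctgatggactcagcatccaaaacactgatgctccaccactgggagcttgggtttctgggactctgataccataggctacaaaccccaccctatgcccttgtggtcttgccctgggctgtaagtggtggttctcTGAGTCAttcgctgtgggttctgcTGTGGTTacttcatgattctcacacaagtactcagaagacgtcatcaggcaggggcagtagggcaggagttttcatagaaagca
Nkg7, chr7:43436888-43437187, plus strand: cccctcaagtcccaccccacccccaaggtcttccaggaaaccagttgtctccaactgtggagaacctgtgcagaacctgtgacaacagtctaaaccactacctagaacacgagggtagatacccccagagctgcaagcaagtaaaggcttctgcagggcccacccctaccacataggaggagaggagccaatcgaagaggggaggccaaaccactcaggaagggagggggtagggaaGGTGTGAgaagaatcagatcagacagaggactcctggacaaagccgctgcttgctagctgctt
Fasl, chr1:161788446-161788745, minus strand: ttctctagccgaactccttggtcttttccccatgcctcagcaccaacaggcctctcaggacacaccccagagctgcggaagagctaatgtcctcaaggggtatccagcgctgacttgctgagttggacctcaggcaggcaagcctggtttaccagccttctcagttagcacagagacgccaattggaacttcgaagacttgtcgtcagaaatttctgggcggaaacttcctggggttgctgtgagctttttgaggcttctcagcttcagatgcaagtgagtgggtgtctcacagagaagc
Gzmk, chr13:113180916-113181215, minus strand: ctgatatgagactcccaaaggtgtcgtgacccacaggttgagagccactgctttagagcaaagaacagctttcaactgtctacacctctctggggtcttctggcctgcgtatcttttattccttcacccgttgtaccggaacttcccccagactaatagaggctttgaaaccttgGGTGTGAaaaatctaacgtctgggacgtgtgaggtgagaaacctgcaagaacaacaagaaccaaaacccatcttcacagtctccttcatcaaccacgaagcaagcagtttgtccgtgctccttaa
Gzma, chr13:113100932-113101231, minus strand: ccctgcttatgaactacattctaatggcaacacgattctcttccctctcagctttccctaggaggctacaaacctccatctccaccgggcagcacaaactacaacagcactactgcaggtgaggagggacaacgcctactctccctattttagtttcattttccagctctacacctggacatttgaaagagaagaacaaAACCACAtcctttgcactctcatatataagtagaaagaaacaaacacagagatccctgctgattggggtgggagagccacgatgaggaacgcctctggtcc
The T-box motif was found in windows of 3 of the 9 members (Gzmk, Nkg7 and 1 of the 2 windows of Gzmm), against 3.98% of all 32851 windows of this length. The RUNX motif was found in 2 (Gzma and Gzmb), against 5.27% of all windows, and the AP-1 motif in Gzmb alone, against 7.81%. The Gzmk window lies inside the annotated span of the gene. A match describes these letters only.

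The libraries held 5844 to 11566 barcodes and 33851381 to 80806452 UMIs, and the median cell kept had 4291 to 6522 UMIs. Any pair of libraries shared 12 to 29 cell barcodes. Among the CD8 T classes the PD-1+ Tcf7+ cells were the deepest, with medians of 7598 to 10250 UMIs, and the PD-1- Tcf7- cells the shallowest, with 4278 to 7055.5 UMIs. The summed level of the 7 NK markers was 2174 to 3579 counts per 1000000 UMIs of the class (CPM) in NK cells and at most 218 CPM in any CD8 T class. Ncr1, the gate gene of the NK class, is among these 7, so part of that sum follows from the rule. The marker lists of CD8 T, CD4 T and B cells hold gate genes too. The NK class also held 800 to 914 CPM of the T cell markers (Cd3d, Cd3g, Trac, Trbc2 and Cd247), against 3114 to 5231 CPM in the CD8 T classes. It held 174 to 221 CPM of the gamma-delta T cell markers Trdc and Tcrg-C1, of which the CD8 T classes had at most 36.0 CPM. Whether these sums come from T cells or from NK cells was not tested. B cell markers were uneven: in PD-1+ Tcf7- CD8 T cells they summed to 14090 CPM in replicate 1, 986 CPM in replicate 2 and 321 CPM in replicate 3, with none of the 5 at 0 over the class. The same markers also varied over replicates 1, 2 and 3 in PD-1- Tcf7- cells (5970, 636 and 240 CPM) and in PD-1- Tcf7+ cells (402, 3658 and 4295 CPM). Macrophage markers were at 0.493 to 30.1 CPM in PD-1+ Tcf7- cells. They were higher in replicate 1 of PD-1- Tcf7+ cells (143, 0.667 and 2.90 CPM over replicates 1, 2 and 3) and of CD4 T cells (98.7, 3.11 and 33.8 CPM).

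Gzma was by far the highest in NK cells, at 4372, 2285 and 3977 CPM in replicates 1, 2 and 3. PD-1+ Tcf7- CD8 T cells followed at 376, 94.2 and 173 CPM, PD-1- Tcf7- cells at 130, 85.6 and 106 CPM, and PD-1- Tcf7+ cells at 29.7, 67.0 and 35.2 CPM. The 3 NK libraries stood apart from every other class. The ranges of the Tcf7- classes overlapped with each other and lay above that of PD-1- Tcf7+ cells. PD-1+ Tcf7+ cells had 44.04, 236 and 30.9 CPM, a range that overlapped with those of the other 3 CD8 T classes, and 1 cell of replicate 2 held 174 UMIs. Without the top cell of each library they had 17.9, 152 and 21.3 CPM, so replicate 2 stayed the highest. Without the cell with the most Gzma UMIs in each library, the class means were 148 CPM ± 87.4 (SD, n = 3) in PD-1+ Tcf7-, 64.4 CPM ± 17.1 in PD-1- Tcf7-, 63.7 CPM ± 76.3 in PD-1+ Tcf7+ and 27.1 CPM ± 9.33 in PD-1- Tcf7+ cells, an alternative chosen after seeing the data.

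Gzmb was graded across the classes. NK cells had 482, 326 and 494 CPM, and PD-1+ Tcf7- CD8 T cells 340, 140 and 160 CPM, the highest of the T cells in every library. PD-1- Tcf7- cells had 72.9, 124 and 76.6 CPM. In the Tcf7+ classes Gzmb was lower, at 11.2, 41.4 and 30.9 CPM in PD-1+ and 6.52, 48.1 and 25.3 CPM in PD-1- cells. CD4 T cells held 7.64 to 16.04 CPM and B cells 0.501 to 1.13 CPM. The PD-1+ Tcf7- libraries did not overlap with any other T cell class, and replicate 1 was the highest of them and the lowest of both Tcf7+ classes.

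Gzmk had another order, with T cells at the top and NK cells near the bottom. It was 162, 237 and 226 CPM in PD-1+ Tcf7- cells, 50.6, 180 and 175 CPM in PD-1+ Tcf7+ cells, 111, 107 and 145 CPM in PD-1- Tcf7- cells and 34.0, 69.4 and 106 CPM in PD-1- Tcf7+ cells. CD4 T cells followed with 35.2, 58.2 and 58.5 CPM. NK cells had 11.4 to 17.4 CPM, below each library of the T cell classes, and B cells 0.858 to 1.74 CPM. Gzmm was scarce everywhere: its highest class was PD-1- Tcf7+ CD8 T, with 6.52, 14.2 and 10.4 CPM, and PD-1+ Tcf7- cells had 2.65, 0.547 and 2.96 CPM from 10 UMIs in all.

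Prf1 was found at 416, 260 and 464 CPM in NK cells. PD-1+ Tcf7- CD8 T cells held 48.6, 60.2 and 56.2 CPM, above the libraries of each other T cell class, whose CD8 values ran from 22.4 to 43.6 CPM. CD4 T cells had 7.53 to 10.3 CPM and B cells 2.15 to 5.32 CPM. Fasl ran at 230, 190 and 264 CPM in NK cells and at 87.5, 112 and 105 CPM in PD-1+ Tcf7- cells, and both ranges stood apart from all others. PD-1- Tcf7- cells had 63.8, 52.3 and 51.2 CPM of Fasl, while CD4 T cells, at 34.0, 39.4 and 43.6 CPM, exceeded both Tcf7+ CD8 T classes in every library.

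For Nkg7 the libraries of PD-1+ Tcf7- CD8 T cells overlapped with those of NK cells, at 1360, 870 and 730 CPM against 1336, 833 and 1088 CPM. It was 708, 277 and 289 CPM in PD-1- Tcf7-, 507, 257 and 271 CPM in PD-1+ Tcf7+ and 373, 135 and 130 CPM in PD-1- Tcf7+ cells. Replicate 1 was the highest library in each of the 7 classes. Ctsw was nearly flat over CD8 T cells, with class means from 159 CPM ± 51.6 (SD, n = 3) to 222 CPM ± 59.7 (SD, n = 3), and NK cells had 452 to 677 CPM. Among the 7 classes both serpins were highest in NK cells. Serpinb9 stood at 937 to 965 CPM and Serpinb6b at 715 to 939 CPM there, against class means of 52.9 to 79.8 CPM and 56.4 to 96.2 CPM in CD8 T cells.

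**Figure D1:**
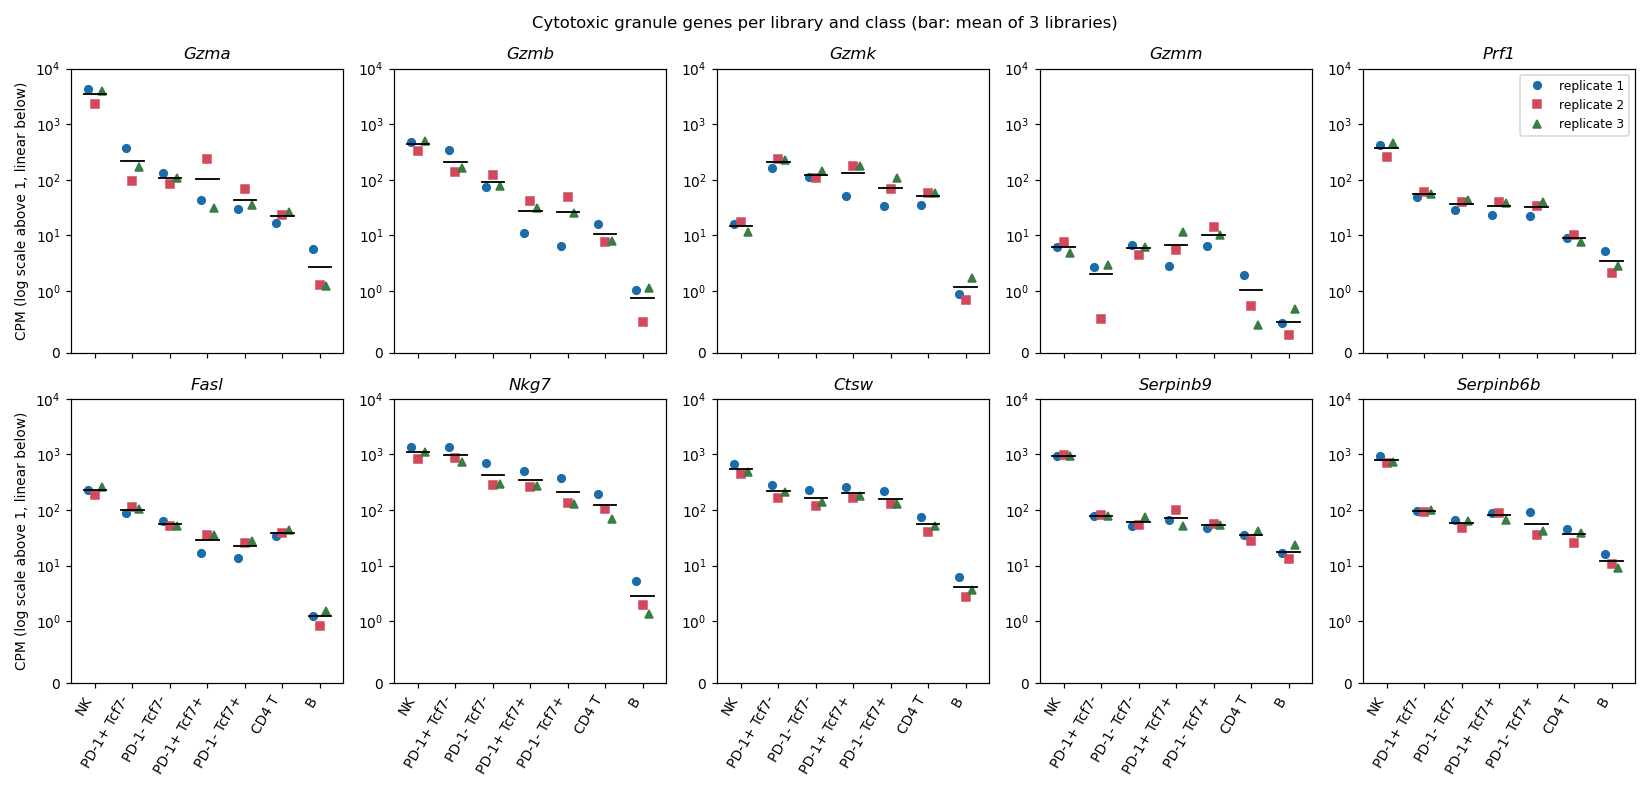
CPM of the 10 genes in 7 classes of islet leukocytes (y axis, logarithmic above 1 CPM and linear below), with 1 point for each library and a bar at the mean of 3 libraries. NK cells are at the top for most genes, while Gzmk is at 11.4 to 17.4 CPM in NK cells and 162 to 237 CPM in PD-1+ Tcf7- CD8 T cells.

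Within PD-1+ CD8 T cells, those without a Tcf7 UMI were set against those with one. Gzmb was 6.63-fold higher in PD-1+ Tcf7- cells (log2 fold change 2.73 ± 0.44 SE, adjusted p = 0.00192, edgeR), Fasl 3.27-fold (1.71 ± 0.18 SE, adjusted p = 1.54e-05) and Nkg7 2.84-fold (1.504 ± 0.17 SE, adjusted p = 4.66e-05). In all, 3 of the 10 members were called higher, where 0.601% of the 9987 genes tested were called higher, 0.280% lower and 0.881% in either direction, and no member was called lower. The members had a median log2 fold change of 0.63, against -0.01 over all genes tested.

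The other members did not pass the test in this contrast. Gzmk had a log2 fold change of 0.63 (95% interval 0.23 to 1.03, adjusted p = 0.166) and was higher in all 3 libraries. Prf1 had 0.62 (0.09 to 1.15, adjusted p = 0.333), also higher in each library. For Gzma the interval was wide, at -0.17 to 2.11 around 0.97. Ctsw, Serpinb9 and Serpinb6b lay at 0.09, 0.07 and 0.22, with the interval of Ctsw running from -0.11 to 0.30 only. Gzmm stood the other way, at -1.86 with a standard error of 0.65.

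The calls of Gzmb and Fasl were each lost once: Gzmb without replicate 3 (log2 fold change 2.98, adjusted p = 0.0803; it was 2.01 without replicate 1 and 3.35 without replicate 2, both still called) and Fasl among cells within the filter limits of the study (1.31, adjusted p = 0.0965). Those limits kept 103 of 507 PD-1+ Tcf7+ cells (16 to 51 a library) and 211 of 594 PD-1+ Tcf7- cells. Nkg7 lost its call without the library block (adjusted p = 0.426), and Gzma passed the test without replicate 2 (2.82, adjusted p = 0.00961). Gzmk (0.62, adjusted p = 0.0387) and Prf1 (0.62, adjusted p = 0.0207) passed with only these classes in the fit. Without a filter on low counts Gzma, Gzmk and Prf1 passed as higher and Gzmm as lower, each at nearly the fold change of the main fit. The B cell marker sum of 14090 CPM in replicate 1 lay in the same class as its high Gzmb, as did a plasma cell marker sum of 1921 CPM, against 98.6 and 65.6 CPM in replicates 2 and 3. Most of the B cell sum was Igkc, with a mean of 4893 CPM against 141 CPM of Cd79a, and the part of this RNA in the Gzmb value was not tested. Sums of 2 markers of cycling cells were also highest in replicate 1 of each CD8 T class. They were 370, 64.1 and 94.7 CPM over replicates 1, 2 and 3 in PD-1+ Tcf7- cells. In PD-1+ Tcf7+ cells they were 372, 37.97 and 36.95 CPM, while replicate 3 was highest in NK cells. Endocrine marker sums were highest in replicate 1 of each CD8 T class too, at 53.04, 27.4 and 12.8 CPM in PD-1+ Tcf7- cells. The part of either in the Gzmb value was not tested. With T and NK cells that held a Cd79a or Lyz2 UMI left out, Gzmb was at 2.64 (adjusted p = 0.00227), Fasl at 1.64 and Nkg7 at 1.51, all 3 still called, a step that need not remove cells with Igkc but no Cd79a UMI.

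The same split among PD-1- CD8 T cells gave 2 calls, both higher in Tcf7- cells, where 0.110% of all genes were called higher, 0.0100% lower and 0.120% in either direction: Fasl at 1.16 ± 0.18 SE (adjusted p = 0.00317) and Nkg7 at 1.00 ± 0.17 SE (adjusted p = 0.0129). Gzmb had 1.58 ± 0.41 SE but an adjusted p of 0.262, Gzma 1.17 ± 0.58 SE and Gzmk 0.75 ± 0.21 SE. Prf1 was at 0.19 ± 0.25 SE. Both calls were lost without replicate 2 (Fasl 1.31, Nkg7 0.997) and without replicate 3 (Fasl 1.37, Nkg7 0.94), with adjusted p from 0.126 to 0.382, and without the library block. Nkg7 was also lost within the filter limits of the study (1.03, adjusted p = 0.311). Gzmb passed without replicate 1 (1.42, adjusted p = 0.0151) and within the filter limits of the study (2.89, adjusted p = 0.000773). It also passed with only these classes in the fit (1.64, adjusted p = 0.0004985). Without a filter on low counts it passed as well (adjusted p = 2.85e-23), at the 1.58 of the main fit. The fit without that filter gave far smaller adjusted p-values for some other members too, at nearly equal fold changes. An example is Gzma in the PD-1+ split (0.96, adjusted p = 6.86e-11, against 0.97 and 0.541 in the main fit). Why was not tested, so calls of that fit are given as values only.

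Set against PD-1- Tcf7- cells, PD-1+ Tcf7- cells had more Nkg7 (1.17 ± 0.17 SE, adjusted p = 0.000156), Fasl (0.77 ± 0.16 SE, adjusted p = 0.00382) and Ctsw (0.34 ± 0.10 SE, adjusted p = 0.0395), 3 of 10 members where 4.08% of all genes were called higher, 4.89% lower and 8.96% in either direction. Gzmk came next to the threshold, at 0.66 ± 0.21 SE with an adjusted p of 0.0502, and Gzmb had 0.98 ± 0.38 SE (adjusted p = 0.123). Without replicate 2 none of the 3 stayed called (Nkg7 adjusted p = 0.0504, Fasl 0.189, Ctsw 0.229), and without replicate 3 Fasl and Ctsw were lost (0.178 and 0.440). Without the library block none of the 3 stayed called, and with at least 3 CD8 UMIs Fasl was lost too (adjusted p = 0.112). The Ctsw call was lost under 8 of 13 alternatives in all, with adjusted p up to 0.796 within the filter limits of the study. Gzmk passed within those limits (1.06, adjusted p = 0.00173), with only these classes in the fit (0.64, 0.00329) and without replicate 1 (0.68, 0.00426). It also passed without a filter on low counts, with at least 3000 UMIs a cell (0.0363) and with doublets removed (0.0396). Gzmb passed within the limits of the study (1.74, adjusted p = 7.86e-05), with only these classes (0.89, 0.0340) and without the filter on low counts. Serpinb6b passed within the same limits (1.30, adjusted p = 0.0283), with only these classes (0.57, 0.00663) and without that filter. The fit without that filter also called Gzma higher (0.81) and Gzmm lower (-1.65).

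Among Tcf7+ cells, PD-1+ cells had more Gzmk (0.78 ± 0.21 SE, adjusted p = 0.0363) and Nkg7 (0.66 ± 0.17 SE, adjusted p = 0.0295) than PD-1- cells, 2 of 10 members where 2.30% of all genes were called higher, 2.24% lower and 4.55% in either direction. Here Gzmb was at -0.17 ± 0.49 SE and Fasl at 0.22 ± 0.20 SE. Both calls were lost without replicate 2 (Gzmk 0.51, adjusted p = 0.629; Nkg7 0.62, adjusted p = 0.367) and without replicate 3 (Gzmk 0.96, adjusted p = 0.238; Nkg7 0.55, adjusted p = 0.316). Each call was lost under 5 of 13 alternatives in all, also without the library block and with at least 3 CD8 UMIs. Gzmk was lost with DESeq2 too (adjusted p = 0.0779), and Nkg7 within the filter limits of the study (adjusted p = 0.171). These 4 contrasts share classes in pairs and are not independent of each other.

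Whether the Tcf7 split differed between PD-1+ and PD-1- cells was tested directly as an interaction. No member passed (0 of 10, with 0.00% of all genes called in either direction by edgeR). Fasl (0.55) and Nkg7 (0.51) were the 2 members with an unadjusted p under 0.05, both higher for the PD-1+ split. Gzmb had 1.15, with a 95% interval from -0.05 to 2.35. DESeq2 called 0 members. The fit without a filter on low counts called Gzmb alone (1.16, adjusted p = 0.000122), again at nearly the fold change of the main fit.

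**Figure D2:**
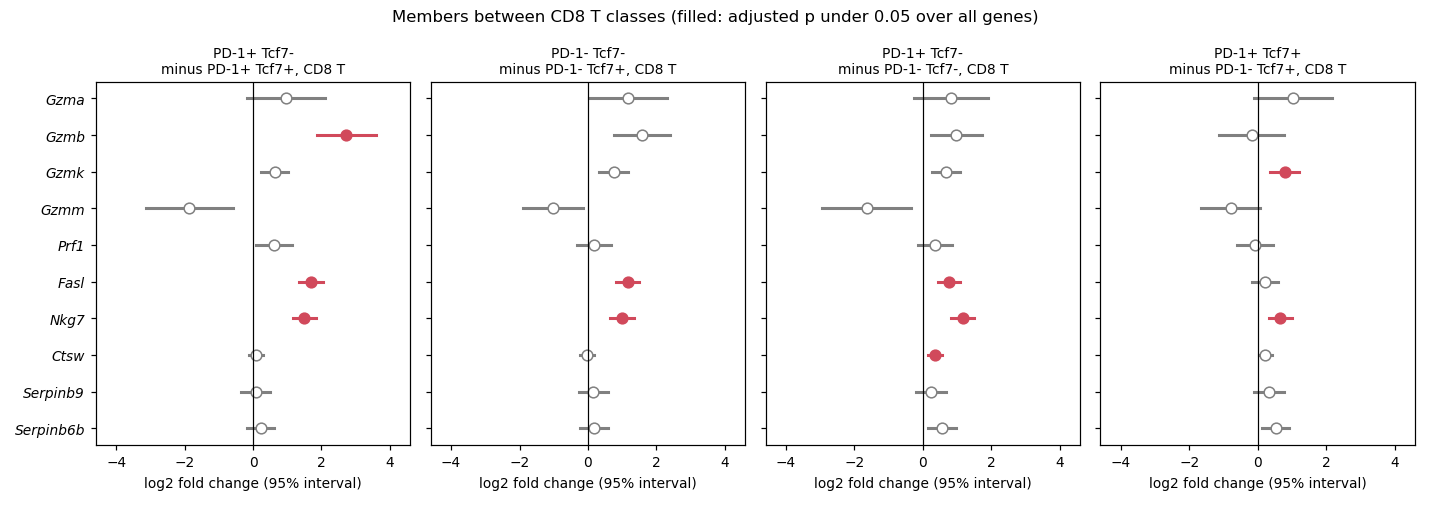
Log2 fold changes of the 10 genes (x axis, with 95% intervals as lines) in 4 contrasts between CD8 T classes, with filled red points where the adjusted p over all genes was under 0.05. Gzmb, Fasl and Nkg7 lie to the right of 0 in the first panel, Fasl and Nkg7 in the second, and Ctsw, Serpinb9 and Serpinb6b sit near 0 in both.

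The classes differ in depth, so shares of cells with a UMI were computed for every cell thinned to 1000 UMIs, which left out no cell. A Gzmb UMI was then found, on average over thinnings, in 11.9% ± 4.12 (SD, n = 3) of PD-1+ Tcf7- cells, 5.24% ± 1.08 of PD-1- Tcf7- cells, 2.24% ± 0.715 of PD-1+ Tcf7+ cells and 0.0905% ± 0.0244 of B cells. For Gzmk the same shares were 18.1% ± 3.11, 9.42% ± 1.22, 12.9% ± 6.24 and 0.112% ± 0.0380. The share for Fasl was 3.37% ± 0.773 in PD-1+ Tcf7+ and 10.8% ± 0.209 in PD-1+ Tcf7- cells, and that for Nkg7 26.5% ± 11.7 and 48.9% ± 13.5. Unthinned, PD-1+ Tcf7- cells had a Gzmb UMI in 26.8%, a Gzmk UMI in 53.4%, a Fasl UMI in 42.2% and an Nkg7 UMI in 80.2%.

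The share was higher in PD-1+ Tcf7- than in PD-1+ Tcf7+ cells in 3 of 3 libraries for Gzmb (by 9.69 percentage points ± 4.79 SD), Gzmk (5.24 ± 3.15), Prf1 (1.78 ± 0.530), Fasl (7.39 ± 0.624) and Nkg7 (22.4 ± 3.45). For these 5 genes the exact two-sided sign-flip test gave p = 0.25, the smallest it can give with 3 libraries. Gzma differed by 1.45 points ± 2.43, and Ctsw by 0.0441 points ± 1.30. All 10 genes were above the B cell share in 3 of 3 libraries in each CD8 T class and in NK cells, and 9 of them in CD4 T cells, where Gzmm, at 0.0859% against 0.0536%, was above it in 2.

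**Figure D3:**
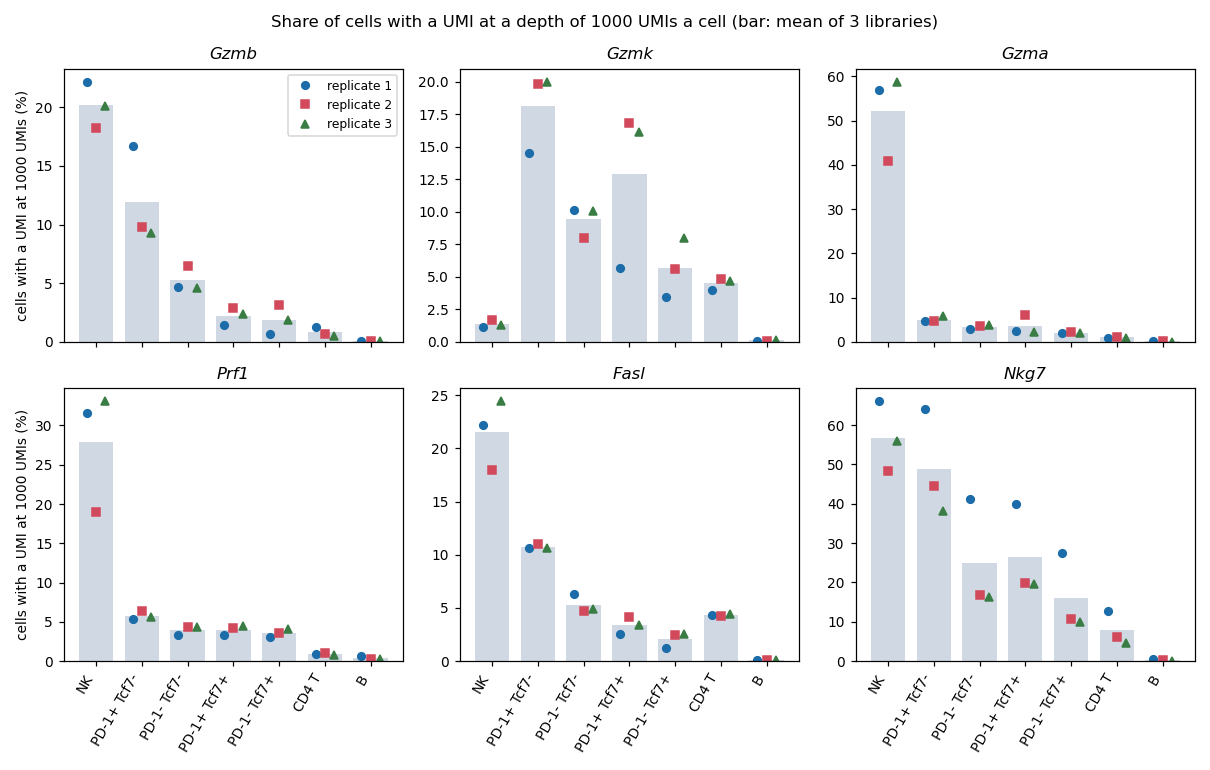
Share of cells with a UMI of each of 6 genes when cells are thinned to 1000 UMIs (y axis, percent), by class (x axis), with 1 point for each library and bars at the mean. For Gzmb and Fasl the PD-1+ Tcf7- class lies between NK cells and the other T cells, and B cells are near 0.

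The granzymes differed in how many cells of a class carried them. In PD-1+ Tcf7- CD8 T cells, 60 of 594 cells had a Gzma UMI, and 5 cells held 50% of the 947 Gzma UMIs, with up to 157 in 1 cell. Gzmb was spread over 155 cells, with 50% of 964 UMIs in 22 of them. Gzmk was spread wider, over 324 cells, with 50% of 1075 UMIs in 66. NK cells carried Gzma more evenly, with a UMI in 160 of 252 cells and 50% of the UMIs in 28.

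For most pairs of these transcripts, cells with the first held the second more often than cells without the first. In PD-1+ Tcf7- cells thinned to 1000 UMIs, 37.4% ± 8.31 (SD, n = 3) of cells with a Gzma UMI also had a Gzmb UMI, against 10.6% ± 4.03 of cells without Gzma. Cells with Gzmb carried Gzmk in 28.8% ± 0.777, against 16.6% ± 4.14 of cells without it. Fasl was found in 19.8% ± 0.807 of cells with Gzmb and in 9.53% ± 0.508 of those without. Each of these 3 differences had the same direction in 3 of 3 libraries, and of the 10 pairs among Gzma, Gzmb, Gzmk, Prf1 and Fasl only Prf1 with Fasl fell short, at 13.4% ± 3.12 against 10.6% ± 0.190, in 2 of 3. In NK cells Gzmb accompanied Gzma in 34.1% ± 2.79, against 5.34% ± 0.729 of cells without Gzma, and Prf1 accompanied Gzmb in 50.03% ± 9.55, against 22.3% ± 6.86. Of the 10 pairs, 8 had the same direction in 3 of 3 libraries in NK cells (not Gzmb with Fasl, 28.8% against 19.5%, nor Prf1 with Fasl, 24.5% against 20.1%), 7 in PD-1+ Tcf7+ cells and 7 in PD-1- Tcf7- cells, where Gzma with Prf1 held in 1 of 3. All NK pairs with Gzmk are among those 8 and rest on few cells, since 15 of 252 NK cells held its 21 UMIs. Unthinned, 16 of 594 PD-1+ Tcf7- cells held UMIs of all 4 of Gzma, Gzmb, Gzmk and Prf1, and 179 held none of them.

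PD-1+ Tcf7- cells were further divided by a UMI of Havcr2 or Entpd1, the genes of TIM-3 and CD39, both carried by terminally exhausted CD8 T cells. The 223 cells with a UMI had 451, 235 and 363 CPM of Gzmb, and the 371 cells without one had 222, 37.5 and 55.3 CPM. The difference was 1.96 ± 0.84 (SD, n = 3) on the scale of log2(CPM + 10). Nkg7 (1724, 1330 and 1451 against 972, 375 and 360 CPM), Fasl (106, 172 and 176 against 67.5, 46.6 and 68.0 CPM) and Gzmk (226, 297 and 286 against 93.0, 173 and 196 CPM) were also higher in 3 of 3 libraries, as were Gzma and Prf1. Ctsw went the other way in 3 of 3, with a mean of 170 CPM ± 18.8 (SD, n = 3) with and 271 CPM ± 108 without, and the serpins had no common direction. Each difference that held in 3 of 3 libraries had an exact two-sided sign-flip p of 0.25, the smallest possible. Cells with a Havcr2 or Entpd1 UMI were deeper, at a median of 8126 against 6070 UMIs, and more of them had a UMI of the proliferation genes Mki67 or Top2a, 25.1% against 13.2%. The part of depth and of proliferation in these differences was not tested.

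**Figure D4:**
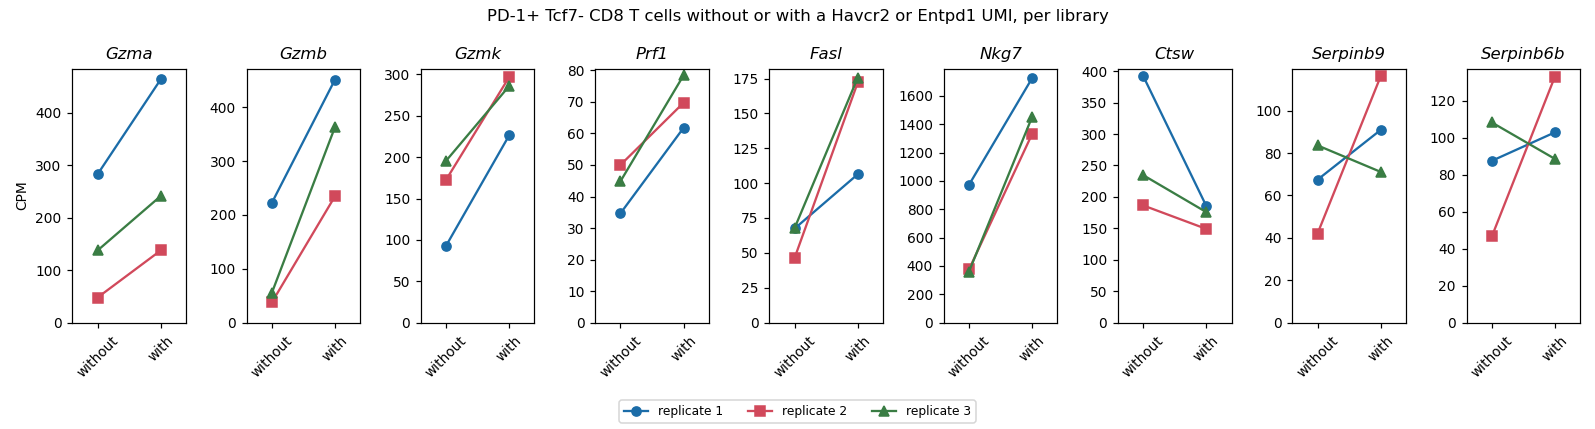
CPM of 9 genes in PD-1+ Tcf7- CD8 T cells without and with a UMI of Havcr2 or Entpd1 (x axis), with 1 line for each library and a y axis of its own from 0 for each gene. Lines for Gzma, Gzmb, Gzmk, Prf1, Fasl and Nkg7 rise in all 3 libraries, those for Ctsw fall, and those for Serpinb9 and Serpinb6b cross. Gzmm, with at most 3.73 CPM, is not drawn.

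NK cells differed from PD-1+ Tcf7- CD8 T cells at 7 of the 10 members. Higher in NK cells were Gzma (16.04-fold, log2 fold change 4.004 ± 0.58 SE, adjusted p = 2.99e-05), Serpinb9 (11.2-fold, 3.49 ± 0.21 SE), Serpinb6b (7.57-fold, 2.92 ± 0.19 SE), Prf1 (6.40-fold, 2.68 ± 0.24 SE), Ctsw (2.30-fold, 1.201 ± 0.11 SE) and Fasl (2.10-fold, 1.07 ± 0.16 SE), 6 members where 9.01% of all genes were called higher and 18.1% in either direction. Gzmk was lower, by 4.03 ± 0.37 SE on the log2 scale (adjusted p = 7.15e-08), and it was the 1 member lower, where 9.10% of genes were. Gzmb (0.99 ± 0.38 SE, adjusted p = 0.0777) and Gzmm did not pass, and for Nkg7 the difference was 0.10 with a 95% interval of -0.23 to 0.44. Gzmb passed under 4 alternatives: without replicate 1 (1.396, adjusted p = 0.000568), with only these classes in the fit (0.0013), within the filter limits of the study (0.00663) and without a filter on low counts. The last gave 0.94 with an adjusted p of 2.89e-10, again far smaller at nearly the same fold change.

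CD8 T cells, as the mean of their 4 classes, had more of 9 members than CD4 T cells, where 7.45% of all genes were called higher, 9.86% lower and 17.3% in either direction: Gzmb 7.11-fold (2.83 ± 0.36 SE, adjusted p = 6.82e-06), Gzmm 6.84-fold, Prf1 4.73-fold, Gzma 4.58-fold, Nkg7 3.61-fold, Ctsw 3.51-fold, Gzmk 2.57-fold, Serpinb6b 2.05-fold and Serpinb9 1.97-fold. Fasl was the exception, at 0.26 ± 0.12 SE (adjusted p = 0.137), and it passed without replicate 1 (0.28, adjusted p = 0.0202). CD4 T cells in turn were above B cells at 9 members, where 27.7% of all genes were called higher, 26.2% lower and 53.9% in either direction, with Gzmk at 39.9-fold (5.32 ± 0.30 SE), Nkg7 at 39.7-fold and Fasl at 29.1-fold. Gzmm did not pass (0.64 ± 0.60 SE), and Prf1, at 1.26 ± 0.28 SE, lost its call without replicate 2 (0.79, adjusted p = 0.0672). The CD4 class held 2105 to 5031 CPM of B cell markers, and with cells that had a Cd79a or Lyz2 UMI left out the 9 calls remained, with Gzmk at 5.52.

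All UMIs of each gene were then assigned to the cells that held them. NK cells, 1.03% of the cells kept, held 36.6% ± 10.5 (SD, n = 3) of all Gzma UMIs, 15.1% ± 5.10 of Prf1, 11.8% ± 1.25 of Serpinb9 and 9.62% ± 2.64 of Gzmb, but 0.297% ± 0.160 of Gzmk. PD-1+ Tcf7- CD8 T cells, 2.32% of the cells, held 17.0% ± 11.1 of Gzmb, 18.1% ± 1.86 of Nkg7 and 13.4% ± 3.51 of Gzmk. CD4 T cells, 21.4% of the cells, held 24.8% ± 4.98 of Gzmk and 27.4% ± 4.42 of Fasl.

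Many UMIs lay in cells outside the classes. Cells with Cd3e and Foxp3 UMIs, the gate of regulatory T cells, were 6.03% of the cells and held 12.1% ± 1.27 of Gzmb UMIs, at a mean of 53.8 CPM, and 8.51% ± 1.86 of Nkg7. Other cells with Cd3e that met no gate, 27.4% of the cells, held from 16.05% of Gzma to 35.4% of Gzmm. Cells with no Cd3e UMI outside the NK and B classes, 11.1% of the cells, held 25.05% ± 6.72 of Serpinb9 and 17.7% ± 3.39 of Gzma.

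**Figure D5:**
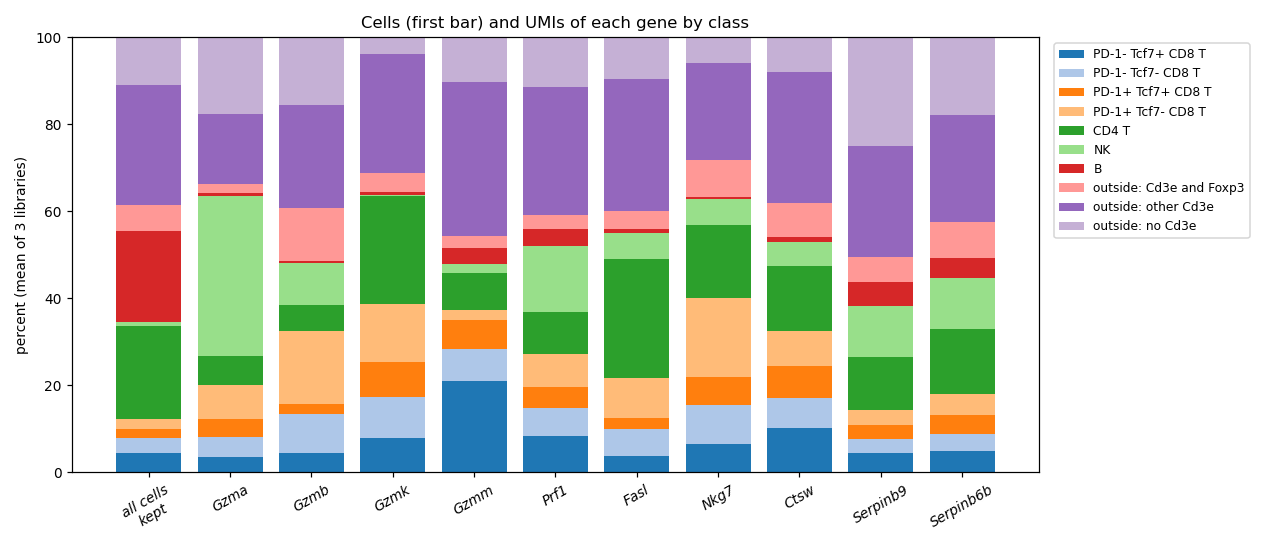
Percent of the cells kept (first bar) and of the UMIs of each gene (other bars) that lay in each class, as means of 3 libraries. NK cells are a thin band of the cells at 1.03% and the widest band of Gzma at 36.6%, and the band of cells with Cd3e and Foxp3 is widest for Gzmb at 12.1%.

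Genes of the same pathway were counted from lists of other granzymes, granule packing, granule transport, death receptors and caspases, other serpins and cathepsins, and regulators. The other granzymes (Gzmc, Gzmd, Gzme, Gzmf, Gzmg and Gzmn) had 245 UMIs in all over the 7 classes, 123 of them of Gzmc, and 0 of 6 passed the filter on low counts. For PD-1+ Tcf7- minus PD-1+ Tcf7+ cells, 0 of 11 packing genes were called, 1 of 14 transport genes (Sytl2, which links granules to Rab27a, at 1.45 ± 0.22 SE), 1 of 12 death receptor and caspase genes (Tnfsf10, the TRAIL ligand, at 1.19 ± 0.25 SE) and 0 of 9 serpins and cathepsins, where 0.601% of all genes were called higher and 0.280% lower. Of 13 regulators, Prdm1 (2.14 ± 0.30 SE), Id2 (1.10 ± 0.15 SE) and Il2rb (0.55 ± 0.13 SE) were higher and Lef1, a partner of TCF1, was lower (-1.29 ± 0.26 SE). Prdm1, the gene of the repressor Blimp-1, ran at 34.5, 33.9 and 29.6 CPM in PD-1+ Tcf7- cells and 7.50, 5.42 and 8.31 CPM in PD-1+ Tcf7+ cells. It was the 1 list gene called in the Tcf7 split of PD-1- cells (3.70 ± 0.43 SE).

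Along the PD-1 gate more genes of any kind were called in the main fit, 8.96% of all genes among Tcf7- and 4.55% among Tcf7+ cells against 0.881% and 0.120% in the Tcf7 splits. This order did not hold in every fit. Without replicate 3, 6 genes were called along the gate among Tcf7+ cells and 29 in the Tcf7 split of PD-1+ cells. Without replicate 2 these were 26 and 14. Among Tcf7- cells 6 of 13 regulators were higher in PD-1+ cells (among them Zeb2 at 1.29, Tox at 1.22, Prdm1 at 1.04 and Id2 at 0.91) and 2 lower (among them Lef1 at -2.51). Among Tcf7+ cells 5 were higher (among them Prdm1 at 2.59, Zeb2 at 1.59, Tox at 1.26 and Eomes at 1.05) and Lef1 was lower (-1.35). Rab27a, which docks granules at the membrane, was higher in PD-1+ cells in both contrasts (0.87 and 0.91), as was Serpinb6a (0.97 and 1.04). Srgn, the proteoglycan on which granzymes are packed and a gene named here after its values were seen, was at 840 to 1390 CPM in all CD8 T classes and was called in none of these 4 contrasts.

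NK cells had more of the transport genes Sytl3 (2.01 ± 0.25 SE) and Sytl2 (1.17 ± 0.20 SE) than PD-1+ Tcf7- CD8 T cells, and less Rab27a (-1.33 ± 0.37 SE) and Coro1a (-0.93 ± 0.12 SE). Of 13 regulators 7 were higher, where 9.01% of all genes were, led by Tbx21, the gene of T-bet (2.54 ± 0.31 SE), and Il2rb (1.64 ± 0.13 SE), and 3 lower, where 9.10% of all genes were, led by Tox (-2.52 ± 0.30 SE) and Prdm1 (-2.17 ± 0.43 SE). Serpinb9b had 279 UMIs in NK cells, at 246, 201 and 158 CPM, and 0 UMIs in PD-1+ Tcf7- cells, so that with 3 counts over the class as the limit it was at least 320-fold higher in NK cells. Fas, the receptor of Fas ligand, was lower in NK cells (-1.45 ± 0.34 SE). In CD8 against CD4 T cells, Eomes (2.00 ± 0.18 SE), Runx3 (0.81 ± 0.08 SE), Cst7 (0.85 ± 0.13 SE) and Ctsc, which activates granzymes (0.49 ± 0.09 SE), were higher, and Prdm1 (-1.37 ± 0.18 SE) and Srgn (-0.43 ± 0.07 SE) lower.

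Likeness of patterns was measured as Pearson's r of log2(CPM + 10) over the 21 sums of 7 classes and 3 libraries, which share libraries and cell types, and is given as a description. Gzma, Prf1, Serpinb9 and Serpinb6b followed each other (r from 0.95 to 0.97). Gzmk was unlike them, at 0.10 with Gzma, 0.11 with Prf1 and -0.05 with Serpinb9. Nkg7 and Ctsw had 0.96. Among 3622 other genes, the closest were Ctla2b for Gzma (0.97) and Prf1 (0.98), Ccr2 for Gzmb (0.94) and Fasl (0.98), Gtf2i for Gzmk (0.94), Runx3 for Nkg7 (0.96) and Ctsw (0.98), Il18rap for Serpinb9 (0.97), Ctla2b for Serpinb6b (0.97) and Amd1 for Gzmm (0.77). Over the 12 sums of CD8 T classes alone, Gzmk went with Prf1 (0.90) and Fasl (0.83), and Gzmb with Fasl (0.92). Gzma, Prf1, Serpinb9 and Serpinb6b were less alike there, with r from 0.14 (Prf1 with Serpinb6b) to 0.74 (Gzma with Serpinb9). Nkg7 and Ctsw had 0.77 in these sums.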

How the data were processed

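Islet CD45+ cells of wild-type NOD mice were profiled in 3 libraries, which are the 3 replicates of 1 group. The authors deposited raw UMI counts per gene and barcode, made with Cell Ranger 6.0.1 on mm10 per the submitters' processing notes. Other counting settings are not given in the sources used here. Cells with at least 1000 UMIs and under 10% mitochondrial UMIs were kept. Doublets were kept in the main values, and an alternative removed 7.6% of each library by a score against artificial doublets. Counts were summed by library and class and tested with edgeR 4.0.16 (R 4.3.3) by the quasi-likelihood test, with filterByExpr, TMM factors and the library as a block, over all 21 sums, and Benjamini-Hochberg adjustment ran over 9987 genes at a threshold of 0.05. All 10 members passed the filter. CPM are counts per 1000000 UMIs of the sum. With the library as a block, the p-values of this fit rest on how class differences vary from library to library. That spread is shared over all classes in the fit, and with 3 libraries of pooled mice it does not tell single mice apart.

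The block was used because classes of 1 library come from the same mice. Deviations from class means correlated at 0.0046 to 0.70 (mean 0.34) between sums of the same library and at -0.60 to 0.43 (mean -0.15) between libraries. The deviations of a class sum to 0 over its 3 libraries. This pushes the values between libraries below 0 by construction, so they are no separate ground for the block. On simulated counts for PD-1+ Tcf7- against PD-1+ Tcf7+ cells over 9987 genes, 68 of 100 genes changed by 1 on the log2 scale and 95 of 100 changed by 2 were recovered, with 3 false calls. Apart from the changed genes, each gene had the same mean share of UMIs in all 21 sums, with no library effect. Recovery and false calls may therefore differ in the real counts. Shares of cells were means over all possible thinnings without replacement. The 95% intervals use a normal quantile and a standard error worked back from the F value of the test. The test itself has finite degrees of freedom, so these intervals can be narrower than its own. They cover the fit only. All members are named, though not each of them in every contrast. Up to 5 called genes per list and comparison are named, those with the largest log2 fold changes. So is the other gene most correlated with each member, from the 3 the rule allows. Members and lists were chosen with earlier results of these data known. Python 3.11.15 with numpy 2.4.6, scipy 1.17.1 and pandas 2.3.3, and DESeq2 1.42.0 as an alternative, were used. Results for some list genes are not reported here.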

Additional observations from a re-analysis of the deposited data

How the results depend on the processing

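With 3 libraries and classes of 75 to 2827 cells, low members such as Gzmm are limited by depth and Gzma by a few cells. For members called in a contrast, 419 alternative values kept the call and 35 lost it. These counts pool all contrasts, so they do not give the rate within CD8 T classes. They include the fit without a filter on low counts, whose calls are given as values only. The losses fell on contrasts between CD8 T classes, other than 1 for Prf1 in CD4 T minus B cells. Among Tcf7+ cells, Gzmk and Nkg7 each lost the call along the PD-1 gate under 5 of 13 alternatives. Along the same gate among Tcf7- cells, Ctsw lost its call under 8 of 13, Fasl under 4 and Nkg7 under 2. In the Tcf7 split of PD-1- cells Fasl lost its call under 3 and Nkg7 under 4. In that of PD-1+ cells Gzmb, Fasl and Nkg7 each lost it under 1. For members not called, 501 stayed so in the same direction, 41 became called (among them calls of the fit without a filter on low counts) and 30 changed direction. The cause of these changes was not tested.

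Genes and members called moved as follows. In PD-1+ Tcf7- minus PD-1+ Tcf7+ cells, 88 genes and 3 members were called, against 195 genes with DESeq2, 360 genes and 7 members without a filter on low counts, 397 and 5 with only these classes in the fit, 18 genes within the limits of the study and 145 with doublets removed. In PD-1- Tcf7- minus PD-1- Tcf7+ cells (12 and 2), they were 31 genes with DESeq2, 112 and 5 without the filter, 42 and 4 with only these classes, and 21 genes with at least 3 CD8 UMIs. In PD-1+ Tcf7- minus PD-1- Tcf7- cells (895 and 3), 7 members were called without the filter, 5 with only these classes, 423 genes and 5 members within the limits of the study, and 457 and 1 with at least 3 CD8 UMIs. In PD-1+ Tcf7+ minus PD-1- Tcf7+ cells (454 and 2), there was 1 member with DESeq2, 726 and 4 without the filter, 839 and 4 with only these classes, and 237 and 0 with at least 3 CD8 UMIs. The interaction (0 and 0) had 44 and 1 without the filter. NK minus PD-1+ Tcf7- cells (1809 genes) had 1103 with only these classes and 721 within the limits of the study. Those limits gave 624 genes in CD8 minus CD4 T cells (1729) and 3214 in CD4 T minus B cells (5379).

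Without the replicate block, 21 genes were called in the Tcf7 split of PD-1+ cells, 4 genes and 0 members in that of PD-1- cells, 204 and 0 in PD-1+ against PD-1- Tcf7- cells, 31 and 0 in PD-1+ against PD-1- Tcf7+ cells, 624 in CD8 against CD4 T cells and 3508 in CD4 T against B cells.

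Leaving out 1 replicate at a time gave 14 to 202 genes and 2 to 4 members in the Tcf7 split of PD-1+ cells, 3 to 27 and 0 to 3 in that of PD-1- cells, 103 to 1207 and 0 to 4 in PD-1+ against PD-1- Tcf7- cells, 6 to 800 and 0 to 3 in PD-1+ against PD-1- Tcf7+ cells, 0 to 1 and 0 to 0 in the interaction, 735 to 2081 genes in CD8 against CD4 T cells, 1023 to 1630 in NK against PD-1+ Tcf7- cells and 3631 to 6090 in CD4 T against B cells. The lowest counts came without replicate 2 or 3 and the highest without replicate 1, other than 4 members without replicate 2 in the first contrast. Log2 fold changes in the Tcf7 split of PD-1+ cells ran from 0.02 to 2.82 for Gzma, 0.01 to 0.18 for Ctsw and -0.13 to 0.42 for Serpinb9, in that of PD-1- cells from -0.0541 to 0.0244 for Ctsw, -0.0628 to 0.49 for Serpinb6b and -0.0235 to 0.31 for Serpinb9, and in PD-1+ against PD-1- Tcf7+ cells from -0.0235 to 1.37 for Gzma, -0.32 to 0.15 for Gzmb and -0.16 to -0.0054 for Prf1. The interaction ran from 0.07 to 0.15 for Ctsw, 0.45 to 0.62 for Fasl, -0.88 to 1.07 for Gzma, -0.22 to 0.0026 for Gzmk, -0.22 to 0.31 for Serpinb6b and -0.18 to 0.11 for Serpinb9, and NK against PD-1+ Tcf7- cells from -0.12 to 0.22 for Nkg7. Share differences ran from -0.650 to 0.635 points for Ctsw and -1.52 to 0.547 for Serpinb9.

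The limits of the study leave out cells with 6000 UMIs or more, and the smallest sum within them, of PD-1+ Tcf7+ cells, held 16 cells. Directions changed for uncalled values only. Within the limits of the study these were Gzma (-0.56), Ctsw (-0.43) and Serpinb9 (-0.34) in the Tcf7 split of PD-1+ cells, Ctsw (0.10) in that of PD-1- cells, Gzmb (1.32) and Prf1 (0.36) in PD-1+ against PD-1- Tcf7+ cells, and Fasl (-0.42) and Ctsw (-0.53) in the interaction. With doublets removed they were Serpinb9 in the first contrast (-0.0214) and Nkg7 in NK cells (-0.0027). With cells holding Cd79a or Lyz2 left out they were Ctsw (0.0326) in PD-1- cells, Gzmb (0.0305) among Tcf7+ cells, Serpinb6b (-0.21) in the interaction and Nkg7 (-0.0606) in NK cells. With at least 3 CD8 UMIs they were Ctsw (0.0686) in PD-1- cells, Prf1 (0.0370) among Tcf7+ cells, Ctsw (-0.0282) and Serpinb6b (-0.31) in the interaction and Nkg7 (-0.0064) in NK cells. The Ctsw share difference was -6.43 points unthinned and -0.0292 with doublets removed, and that of Serpinb9 was 0.019997 when thinned to 2000 UMIs.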
